A study of Homo sapiens with 5 samples.

Results

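The ATP-binding cassette (ABC) genes were examined in gefitinib-resistant HCC827/GR cells and in the parental HCC827 cells. Members were the rows of the deposited FPKM table (fragments mapped to a gene, scaled by transcript length and by library size) whose symbol is ABC, a letter from A to G, and digits. There were 58 such rows with 44 symbols among the 37181 entries of the table, and where a symbol had several rows (4 symbols) the row with the highest mean FPKM was taken. HCC827 is a human lung adenocarcinoma cell line, and the labels give an exon 19 deletion, known in this line to lie in EGFR, for the resistant and the parental libraries alike. The allele was not checked here. The resistant cells were selected from the parental ones by gradually raised doses of gefitinib, an inhibitor of the EGFR kinase, over several months of culture, and are 1 derived line. Replicates 1, 2 and 3 of HCC827/GR and replicates 2 and 3 of HCC827 were available, and no source says whether they were separate cultures, so p-values measure the spread between these libraries only. No labels give a batch.

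ABC proteins bind and hydrolyse ATP and mostly use it to carry lipids, drugs, conjugates, peptides or metal complexes across a membrane. Several members of the B, C and G subfamilies pump drugs out of cells and were first known from multidrug-resistant tumor cells, most of all ABCB1 (P-glycoprotein), ABCC1 (MRP1) and ABCG2 (BCRP). The A subfamily and part of the G subfamily move lipids and sterols, the D subfamily serves peroxisomes and lysosomes, and the E and F subfamilies are no transporters but work on the ribosome. In the lung, ABCA3 loads surfactant lipids into the lamellar bodies of alveolar type II cells.

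By the adjusted p of the main test, ABCB1, ABCA3 and ABCC9 rose in the resistant cells, and ABCA12 fell. By adjusted p, none of these calls held in a model in the style of Ballgown, the package the study used, or with a replicate block. By the study's thresholds, a change by 2 times or more with an unadjusted p under 0.05, ABCB1, ABCA3 and ABCA12 passed in both. Their log2 fold changes were 1.75, 1.17 and -1.94 in the model in the style of Ballgown. ABCC9 fell short of that change in both, with log2 fold changes of 0.75 and 0.85. The rise of ABCC9 was also lost when all entries of its symbol were summed. ABCB1 mRNA was 5.18 times as high in HCC827/GR as in HCC827 cells by the ratio of the group means, while the other well-known pump, ABCG2, had the lower mean in the resistant cells without passing the test. ABCC2, ABCC4, ABCC3, ABCC1 and ABCC5, the pumps with the highest levels, differed by less. Of the 44 members, 26 averaged 0.5 FPKM or more across the 5 libraries and were tested, each with a mean above 0.5 FPKM in both cell lines (lowest 0.606), and 18 stayed below and were not tested.

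Values were compared as log2(FPKM + 1) with limma (trend allowed for, two-sided), with Benjamini-Hochberg adjustment over the 16189 entries tested, and on this scale the change of a weakly expressed gene comes out too small. An adjusted p under 0.05 was reached by 3 members with higher and 2 with lower values in HCC827/GR cells, against 5.26% and 5.71% of all entries tested. The study's thresholds, which ask for a change by 2 times or more together with an unadjusted p under 0.05, were passed by 2 members with higher values (2.96% of all entries) and 1 with lower values (3.97%). In 12 of the 26 tested members every HCC827/GR library lay above both HCC827 libraries, and in 5 every one lay below, where 22.8% and 23.4% of all entries did so. With 3 libraries against 2, an exact permutation test of a single gene cannot go below a two-sided p of 0.1. The median log2 fold change of the 26 tested members was 0.17, and 21 of the 26 values were above 0, beside a median of 0.00 and 50.2% of values above 0 over all entries. Over the 10977 protein-coding entries tested, the median was 0.034 and 54.2% of values were above 0.

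FPKM carries no read number, so the depth behind each value is unknown. The summed FPKM of the members was between 187.2 and 194.6 in the HCC827 libraries and between 209.8 and 225.8 in the HCC827/GR libraries. As a share of all FPKM the lines overlapped, at 0.129%, 0.157% and 0.135% in HCC827/GR and 0.140% and 0.116% in HCC827 libraries. As a share of the FPKM of protein-coding entries they did not overlap. It was 0.192%, 0.202% and 0.182% in HCC827/GR and 0.177% and 0.163% in HCC827 libraries. The epithelial identity of the line was checked with EPCAM, KRT8, KRT18, KRT19 and CDH1, all present in every library, with a summed level of 1063 to 1182 FPKM in HCC827 and 443 to 573 FPKM in HCC827/GR cells. The 7 fibroblast markers summed to 3.33 to 3.44 FPKM and 2.72 to 3.06 FPKM, and the 2 blood cell markers in the table stayed at or below 0.267 FPKM. Of the 4 endothelial markers, PECAM1 had 4.34 and 3.32 FPKM in HCC827 and was listed at 0 in every HCC827/GR library, and VWF, CDH5 and KDR stayed at or below 0.0830 FPKM throughout. In bulk RNA, fewer cells that express a gene and less of its RNA per cell cannot be told apart.

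The 250 bases before the transcription start are printed for the members with the largest fold changes in each direction, so that the text can refer to them. They come from RefSeq on GRCh38.p14, which holds 52 starts for 34 of the 44 symbols, and are written 5′ to 3′ on the strand of the gene. ABCB1 and ABCA12 are shown with both of their starts, since the gene-level FPKM cannot say which one was used. Capitals mark matches, on either strand, to any of 5 motifs. The E-box was searched as CAGGTG, the GC box as GGGCGG and the CCAAT box by the letters of its name. The TATA box was searched as TATAAA and the antioxidant element as TGACNNNGC.
ABCB1, downstream start, chr7:87600885-87601134, minus strand: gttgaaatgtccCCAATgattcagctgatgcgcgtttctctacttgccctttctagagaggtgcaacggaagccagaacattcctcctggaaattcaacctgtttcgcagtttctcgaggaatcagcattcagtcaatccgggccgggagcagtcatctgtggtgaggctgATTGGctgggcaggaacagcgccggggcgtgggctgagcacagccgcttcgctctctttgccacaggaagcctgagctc
ABCB1, upstream start, chr7:87713296-87713545, minus strand: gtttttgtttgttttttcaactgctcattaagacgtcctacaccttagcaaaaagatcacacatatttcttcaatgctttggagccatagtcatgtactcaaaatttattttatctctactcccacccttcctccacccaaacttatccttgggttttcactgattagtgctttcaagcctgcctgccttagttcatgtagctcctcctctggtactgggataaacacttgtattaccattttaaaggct
ABCA3, chr16:2340729-2340978, minus strand: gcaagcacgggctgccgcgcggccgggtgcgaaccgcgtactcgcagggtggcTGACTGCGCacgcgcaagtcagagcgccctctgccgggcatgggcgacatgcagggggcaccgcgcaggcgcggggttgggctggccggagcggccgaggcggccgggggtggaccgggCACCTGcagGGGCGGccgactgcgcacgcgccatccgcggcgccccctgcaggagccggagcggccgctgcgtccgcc
ABCA12, upstream start, chr2:215138627-215138876, minus strand: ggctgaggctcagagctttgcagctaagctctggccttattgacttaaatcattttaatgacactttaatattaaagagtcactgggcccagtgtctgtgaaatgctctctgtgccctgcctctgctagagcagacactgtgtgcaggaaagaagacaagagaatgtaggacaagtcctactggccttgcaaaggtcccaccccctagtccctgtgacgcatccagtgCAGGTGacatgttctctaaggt
ABCA12, downstream start, chr2:215032087-215032336, minus strand: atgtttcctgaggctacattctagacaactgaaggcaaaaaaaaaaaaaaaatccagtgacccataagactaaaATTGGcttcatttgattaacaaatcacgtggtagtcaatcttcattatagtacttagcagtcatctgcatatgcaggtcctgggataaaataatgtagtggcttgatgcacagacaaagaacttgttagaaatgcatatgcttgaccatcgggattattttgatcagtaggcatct

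The downstream ABCB1 window held 2 CCAAT boxes and none of the other motifs, and the upstream window held no match to any of the 5. The ABCA3 window held an E-box, a GC box and an antioxidant element, the upstream ABCA12 window an E-box alone, and the downstream ABCA12 window a CCAAT box alone. Among all 35116 RefSeq windows of this length, 17.5% held the E-box, 42.6% the GC box, 32.0% the CCAAT box, 10.7% the TATA box and 10.9% the antioxidant element. Among the 52 member windows, 12 held the E-box, 24 the GC box, 10 the CCAAT box, 6 the TATA box and 8 the antioxidant element. Some starts of 1 gene lie close together, so that their windows share bases.

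ABCB1 encodes P-glycoprotein, a pump of broad substrate range at the cell surface. It lies on chromosome 7 of GRCh38 from 87503633 to 87713323 on the minus strand. Its expression was 6.02, 8.12 and 5.70 FPKM in HCC827/GR replicates 1, 2 and 3, and 1.33 and 1.23 FPKM in HCC827 replicates 2 and 3. The groups did not overlap, and every resistant library lay well above both parental ones. The means were 6.61 ± 1.32 FPKM (SD, n = 3) and 1.28 ± 0.0730 FPKM (SD, n = 2), a log2 fold change of 1.73 (SE 0.16, limma's adjusted p = 0.00951). The log2 fold change was 1.76 without HCC827 replicate 2 and 1.69 without HCC827 replicate 3, where a single parental library remains. With all libraries, the adjusted p was above 0.05 in the model in the style of Ballgown (0.207) and with a replicate block (0.130).

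ABCG2, the breast cancer resistance protein, is a half-transporter that works as a dimer at the apical membrane. Its expression was 4.53 and 4.18 FPKM in the HCC827 libraries and 1.42, 1.39 and 2.70 FPKM in HCC827/GR replicates 1, 2 and 3. All resistant libraries lay below both parental ones, and replicate 3 lay well above the other two resistant libraries. The log2 fold change was -0.95 (SE 0.23) with an adjusted p of 0.0703, so the difference did not pass the test. Without HCC827/GR replicate 3 it was -1.15 with an adjusted p of 0.0319, and over all alternatives the adjusted p ran from 0.0319 to 0.264. By the study's thresholds for fold change and unadjusted p, ABCG2 was missed in the main test, where its log2 fold change fell short of -1. It met both thresholds in the model in the style of Ballgown (log2 fold change -1.15). It also met them with a pseudocount of 0.1 (-1.27) and without HCC827/GR replicate 3, but in none of the other alternatives. Among the 9 drug pumps tested, ABCG2 ranked 6 by mean FPKM in HCC827 and 8 in HCC827/GR cells, whereas ABCB1 ranked 8 and 6.

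ABCC2 (MRP2), an apical exporter of glutathione and glucuronide conjugates, had the highest level of any member in both lines. It had 29.7, 27.2 and 26.7 FPKM in HCC827/GR and 23.4 and 22.7 FPKM in HCC827 libraries, without overlap. The log2 fold change was 0.26 (SE 0.0935, adjusted p = 0.161). ABCC4 (MRP4), an exporter of cyclic nucleotides and prostaglandins, had 15.2, 16.2 and 14.6 FPKM against 14.8 and 12.9 FPKM. ABCC3 (MRP3), a basolateral conjugate exporter, had 15.9, 17.6 and 9.96 FPKM against 15.3 and 11.8 FPKM. The groups overlapped for both, and the intervals of their log2 fold changes were -0.14 to 0.42 for ABCC4 and -0.65 to 0.77 for ABCC3.

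ABCC1 (MRP1), the founding member of the conjugate exporters, had 10.4, 8.47 and 9.50 FPKM in HCC827/GR and 6.98 and 7.15 FPKM in HCC827 libraries. ABCC5 (MRP5), which carries cyclic nucleotides, had 7.21, 7.58 and 6.34 FPKM against 4.68 and 4.98 FPKM. Neither pump overlapped between the lines, with log2 fold changes of 0.37 (95% interval 0.08 to 0.67, adjusted p = 0.119) and 0.46 (0.18 to 0.74, adjusted p = 0.0646). ABCC10 (MRP7), a pump of taxanes among other drugs, had 3.69, 4.04 and 3.18 FPKM against 3.07 and 2.93 FPKM, with a log2 fold change of 0.21 (adjusted p = 0.325). ABCC6, the transporter mutated in pseudoxanthoma elasticum, had 1.56, 1.65 and 1.01 FPKM against 0.813 and 0.688 FPKM, with a log2 fold change of 0.45 (adjusted p = 0.174). Its values are uncertain, because the pseudogenes ABCC6P1 and ABCC6P2 are near copies, and ABCC6P1 differed in the same direction, at 1.85, 2.07 and 1.44 FPKM in HCC827/GR and 0.885 and 0.836 FPKM in HCC827 libraries.

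ABCC11 and ABCC12, neighbouring genes on chromosome 16, and ABCB5, a pump described in melanoma, stayed below the level needed for the test. ABCC11 was at most 0.0896 FPKM and ABCC12 at most 0.00654 FPKM in any library. ABCB5 had 0.0568, 0.0967 and 0.0612 FPKM in HCC827/GR cells, and was listed at 0 in HCC827 replicate 2 and had 0.00454 FPKM in replicate 3. The groups did not overlap, but the level was far below that of ABCB1. Of the 12 drug pumps by role, 9 were tested, 1 rose and none fell by adjusted p from limma. By the unadjusted p under 0.05 there were 5 with higher and 1 with lower values, against 13.4% and 13.8% of all entries tested. The model in the style of Ballgown gave 3 and 1, against 9.44% and 8.74% of all entries, with 0 past the adjusted threshold.

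**Figure D1:**
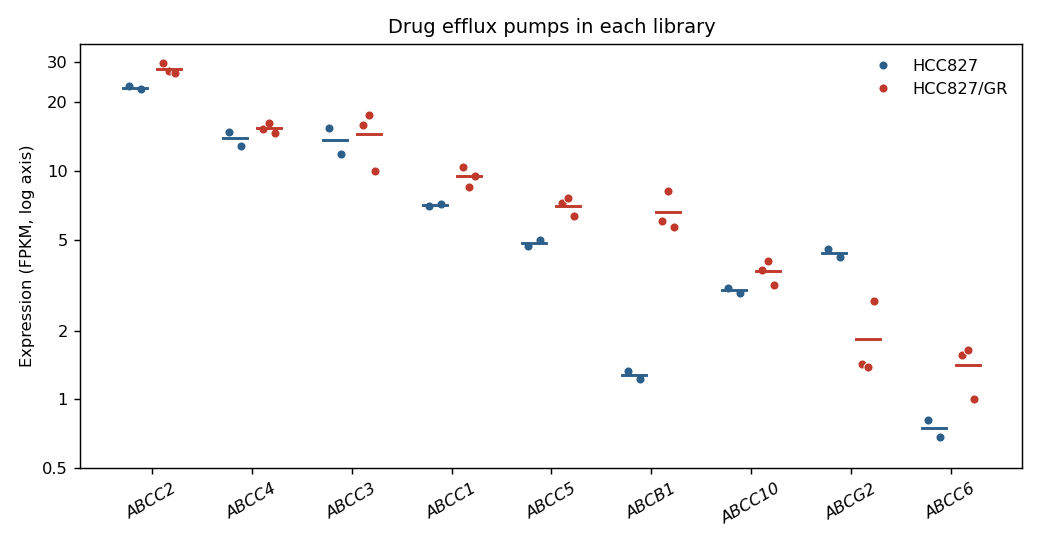
Expression of the 9 tested drug efflux pumps in each library, in FPKM on a log axis, ordered by mean. Points are libraries (2 of HCC827, 3 of HCC827/GR) and lines are group means: ABCB1 lies at 1.33 and 1.23 FPKM in the parental libraries and between 5.70 and 8.12 FPKM in the resistant ones, and ABCG2 is the only pump with a lower resistant mean.

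Besides ABCB1, the members that rose were ABCA3 and ABCC9. ABCA3, the surfactant lipid transporter, lies on chromosome 16 from 2275881 to 2340746. It had 6.91, 6.63 and 6.95 FPKM in HCC827/GR and 2.38 and 2.53 FPKM in HCC827 libraries, with little spread within either line. The means were 6.83 ± 0.177 FPKM (SD, n = 3) and 2.46 ± 0.111 FPKM (SD, n = 2), a log2 fold change of 1.18 (SE 0.085, adjusted p = 0.00521). Leaving out any 1 library kept its adjusted p under 0.05, at most 0.0370.

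Partners of ABCA3 in surfactant handling were mostly too low to test. Of the 7 genes of the surfactant and lamellar body list in the table, 2 were tested. NKX2-1, the lung lineage transcription factor, fell, with 0.963, 0.762 and 0.415 FPKM in HCC827/GR against 4.30 ± 0.422 FPKM (SD, n = 2) in HCC827 libraries (log2 fold change -1.64, adjusted p = 0.0115, and at most 0.0798 with 1 library left out), in an entry that also joins transcripts of SFTA3 and AL132857.1. LAMP3, a lamellar body membrane protein, had 0.667 ± 0.0978 FPKM (SD, n = 3) and 0.444 ± 0.0965 FPKM (SD, n = 2), with an adjusted p of 0.410. SFTPB, a surfactant protein, was not tested and reached at most 0.139 FPKM.

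ABCC9 is no pump but the sulphonylurea receptor SUR2, the regulatory subunit of ATP-sensitive potassium channels. Its entry, on chromosome 12 from 21797401 to 21942529, had 6.25, 6.89 and 6.88 FPKM in HCC827/GR and 3.21 and 3.55 FPKM in HCC827 libraries. The log2 fold change was 0.81 (SE 0.096, adjusted p = 0.0140), and it lost its adjusted p under 0.05 without any 1 library except HCC827/GR replicate 3, at up to 0.0728. The table lists 11 further entries under this symbol, none with an Ensembl transcript, which summed to 0.967 to 1.80 FPKM in HCC827/GR and 10.1 and 2.58 FPKM in HCC827 libraries. With all entries summed the direction turned, to -0.15 (adjusted p = 0.800). The summed values were 8.05, 8.39 and 7.84 FPKM in HCC827/GR libraries, 13.3 FPKM in HCC827 replicate 2 and 6.14 FPKM in replicate 3. The turn came from HCC827 replicate 2, while replicate 3 stayed below every HCC827/GR library. The rise was thus seen for the annotated entry, and for the symbol as a whole the lines overlapped.

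KCNJ8 encodes Kir6.1, the pore subunit that pairs with SUR2, and is the nearest tested gene beside ABCC9 on the same chromosome. It was looked at after the ABCC9 values were seen. It fell, with 0.808, 0.647 and 0.432 FPKM in HCC827/GR against 2.22 and 1.68 FPKM in HCC827 libraries (log2 fold change -0.86, adjusted p = 0.0408), though the adjusted p was between 0.0845 and 0.154 with any 1 library left out. The ratio of the annotated entry of ABCC9 to KCNJ8 was 7.73, 10.7 and 15.9 in the resistant and 1.45 and 2.12 in the parental libraries. ABCC8, the related receptor SUR1, was listed at 0 in 4 of the 5 libraries.

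ABCA12 showed the largest fold change of any tested member. It carries lipids into the lamellar granules of keratinocytes, and its loss causes harlequin ichthyosis. The gene lies on chromosome 2 from 214931542 to 215138428. It had 1.80, 1.73 and 1.86 FPKM in HCC827/GR and 11.6 and 8.55 FPKM in HCC827 libraries, so that even the lower parental library was well above every resistant one. The means were 1.80 ± 0.0675 FPKM (SD, n = 3) and 10.1 ± 2.15 FPKM (SD, n = 2), the parental one 5.61 times the resistant one, with a log2 fold change of -1.97 (SE 0.14, adjusted p = 0.00521). The highest adjusted p with an HCC827/GR library left out was 0.0370. Without HCC827 replicate 2 or 3 the log2 fold change was -1.77 or -2.17. The adjusted p was 0.180 in the model in the style of Ballgown and 0.130 with a replicate block. The summed epithelial markers were also lower in the resistant cells, among them EPCAM with a log2 fold change of -3.04 (adjusted p = 0.00349) and CDH1 with -1.93 (adjusted p = 0.0125), and their part in the fall of ABCA12 was not tested.

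The remaining lipid transporters that were tested did not pass. ABCA1, the cholesterol and phospholipid exporter to apolipoprotein A-I, had 14.5, 13.8 and 7.82 FPKM in HCC827/GR and 12.2 and 8.95 FPKM in HCC827 libraries. HCC827/GR replicate 3 lay lowest of all, and the interval of the log2 fold change, -0.65 to 0.92, was wide. ABCA2, a transporter of late endosomes and lysosomes, had the higher resistant values, with a log2 fold change of 0.57 (adjusted p = 0.0783). ABCA7, a phospholipid transporter linked to Alzheimer disease, had the lower resistant values, with -0.78 (adjusted p = 0.0782). Both were without overlap between the lines. The other 13 members with lipid, sterol or bile roles stayed below the test, the highest of them being ABCA5 with 0.193 to 0.438 FPKM. They include ABCG1, the sterol exporter that works beside ABCA1, with at most 0.0192 FPKM, and ABCB4, the phospholipid pump next to ABCB1, with 0.0272 to 0.0413 FPKM in HCC827/GR and 0.0829 and 0.0838 FPKM in HCC827 libraries.

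Among the members of mitochondria and lysosomes, ABCB8, ABCB9 and ABCB10 did not pass the test. ABCB9, the lysosomal peptide transporter, had 0.554, 0.633 and 0.630 FPKM in HCC827/GR against 1.37 and 1.27 FPKM in HCC827 libraries, with a log2 fold change of -0.53 (adjusted p = 0.0533). It passed at 0.0247 with equal totals over protein-coding genes, 0.0365 without the trend and 0.0443 with entries summed. Its exons overlap those of OGFOD2 and ARL6IP4 on the opposite strand, and no strand setting is stated. ABCB10, which takes part in haem synthesis, had the opposite sign, at 7.38, 9.33 and 8.90 FPKM in HCC827/GR and 5.62 and 6.42 FPKM in HCC827 libraries, with a log2 fold change of 0.44 (adjusted p = 0.117). ABCB8, a subunit of a mitochondrial channel, overlapped between the lines, with a log2 fold change of 0.11 (adjusted p = 0.679).

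No peroxisomal or ribosomal member passed the test. By limma's unadjusted p under 0.05 there was 1 of the 3 tested peroxisomal and cobalamin members, ABCD3, and 0 of the 4 ribosomal ones, where 27.2% of all entries passed in either direction. The model in the style of Ballgown gave 0 for both, against 18.2% of all entries. ABCD3 (PMP70), the abundant peroxisomal half-transporter, had 13.6, 17.6 and 15.9 FPKM in HCC827/GR and 11.9 and 12.2 FPKM in HCC827 libraries (log2 fold change 0.34, adjusted p = 0.180). ABCD4, a lysosomal cobalamin protein, had a log2 fold change of 0.19 (adjusted p = 0.369). ABCE1, which splits ribosomes after termination, had 13.8, 16.2 and 17.8 FPKM against 11.5 and 14.7 FPKM. ABCF1 had 13.5, 14.1 and 16.4 FPKM against 12.7 and 14.8 FPKM, and ABCF2 16.3, 14.1 and 19.6 FPKM against 12.9 and 16.9 FPKM. All 4 ribosomal members, ABCF3 included, overlapped between the lines, and the intervals of their log2 fold changes lay between -0.33 and 0.68.

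**Figure D2:**
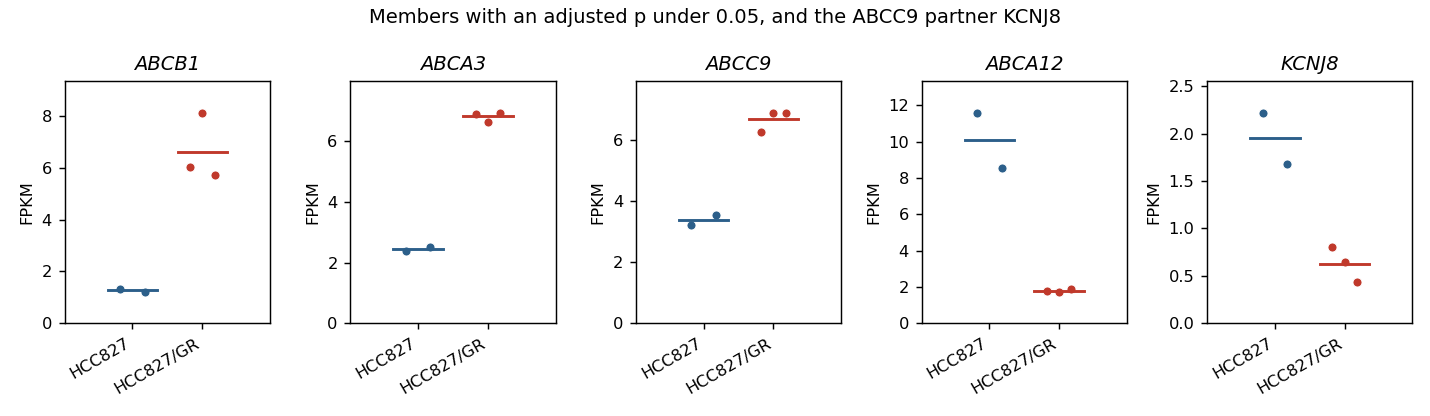
Expression in FPKM (linear axes from 0) of ABCB1, ABCA3, ABCC9 and ABCA12, each with an adjusted p under 0.05, and of KCNJ8, the channel partner of ABCC9. Points are libraries and lines are group means, and in no panel do the HCC827 and HCC827/GR libraries overlap: ABCB1, ABCA3 and ABCC9 are higher in HCC827/GR, and ABCA12 and KCNJ8 are lower.

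**Figure D3:**
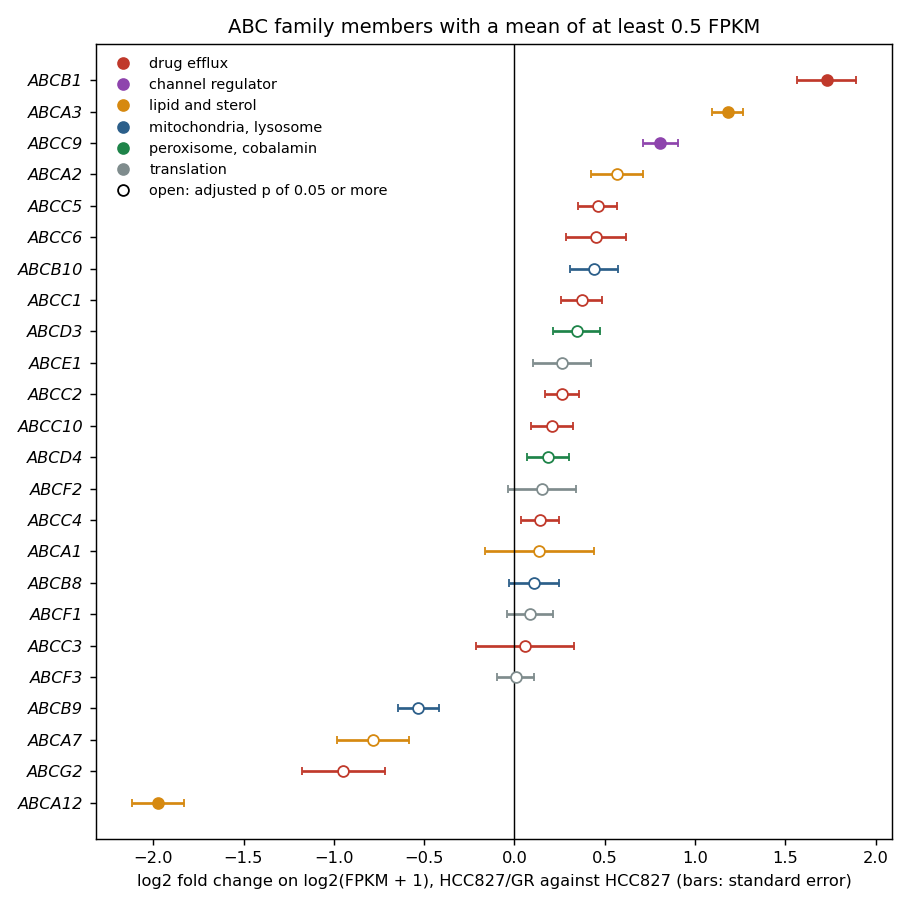
Log2 fold change between HCC827/GR and HCC827, from log2(FPKM + 1), of 24 of the 26 tested members, with standard errors, coloured by role and ordered by value. Filled points mark the 4 of them with an adjusted p under 0.05, which run from -1.97 for ABCA12 to 1.73 for ABCB1, and 20 of the 24 values are above 0.

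The genes beside ABCB1 were examined to see whether they moved with it. Of the 3 nearest tested protein-coding genes on either side, none had an adjusted p under 0.05 and a positive change, and their median log2 fold change was 0.25. Over all entries tested, 5.26% were called higher, so a count of none among so few genes cannot be told apart from that share. On one side DMTF1, TMEM243 and CROT had log2 fold changes of 0.29, 0.21 and 0.00, and on the other side SLC25A40 and DBF4 had 0.30 and 0.06. RUNDC3B, which overlaps the introns of ABCB1, had 2.46, 1.22 and 2.02 FPKM in HCC827/GR and 0.580 and 0.448 FPKM in HCC827 libraries, with a log2 fold change of 0.91 (adjusted p = 0.0695). The annotated exons of RUNDC3B and ABCB1 do not overlap. Where strand is not stated, reads of RUNDC3B cannot be told apart from reads of ABCB1 introns.

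The same count for ABCA3, ABCC9 and ABCA12 found 0 of 6 neighbours called in the direction of ABCA3 and 0 of 6 in that of ABCC9. For ABCA12 there was 1 of 6, the fibronectin gene FN1 with a log2 fold change of -1.59 (adjusted p = 0.00794). Over all entries tested, 5.26% were called higher and 5.71% lower. Counts over 6 genes are too small to be told apart from these shares. The plot of neighbouring genes shows ABCB1 standing above both sides and ABCC9 rising between genes with values below 0.

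**Figure D4:**
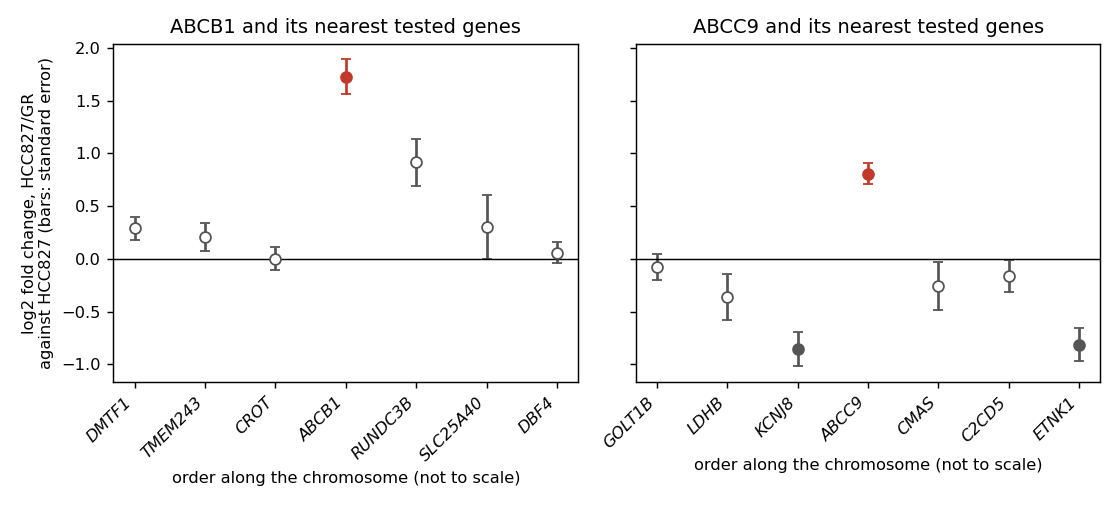
Log2 fold change between HCC827/GR and HCC827 from log2(FPKM + 1), with bars for standard errors, of ABCB1, ABCC9 and the 3 nearest tested protein-coding genes on either side, in chromosomal order and not to scale. Filled points have an adjusted p under 0.05: ABCB1 at 1.73 lies above all its neighbours, and ABCC9 at 0.81 lies among genes between -0.86 and -0.08.

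Genes that work with the ABC proteins were taken from 8 lists, all chosen by role. Among the drug uptake carriers, which bring drugs and hormones into cells, 2 of 8 tested genes fell and none rose by adjusted p. Over all entries tested, 5.71% fell and 5.26% rose. SLCO2A1, the prostaglandin transporter, had 0.164, 0.135 and 0.177 FPKM in HCC827/GR and 7.94 and 14.5 FPKM in HCC827 libraries (log2 fold change -3.34, adjusted p = 0.00545), and the adjusted p was at most 0.0372 with a library left out. SLCO4A1, an organic anion carrier, had 7.89, 8.64 and 10.4 FPKM against 18.8 and 16.7 FPKM, with a log2 fold change of -0.91 (adjusted p = 0.0268, up to 0.128 with 1 library left out). The drop of SLCO2A1 on the log2 scale exceeded that of ABCA12.

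Of the 7 tested genes that control or anchor drug pumps, 1 rose, beside 5.26% of all entries. This was PDZK1, a scaffold protein that binds the tail of ABCC2 and other apical transporters, with 7.77, 8.38 and 4.56 FPKM in HCC827/GR and 0.912 and 0.614 FPKM in HCC827 libraries (log2 fold change 2.13, adjusted p = 0.0151, and up to 0.0958 with 1 library left out). A pseudogene named PDZK1P1 could share its reads. The anchors EZR, RDX and MSN did not pass, with log2 fold changes of -0.34, 0.19 and -0.82. SLC9A3R1, also of this list, did not pass either, with a log2 fold change of 1.07 (limma's adjusted p = 0.157). NR1I2, the drug sensor PXR, reached at most 0.0156 FPKM.

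In the sterol efflux list 1 of 14 tested genes rose, which is near the 5.26% of all entries that did. It was the late endosomal cholesterol transporter NPC1, with 42.6, 42.7 and 42.8 FPKM against 27.0 and 30.6 FPKM and a log2 fold change of 0.56 (adjusted p = 0.0322). Its adjusted p was between 0.0556 and 0.106 with any 1 library left out. None of the 7 peroxisome partners, the 8 genes of mitochondrial haem and iron-sulphur work and the 9 ribosome recycling genes that were tested had an adjusted p under 0.05 from limma. Their unadjusted p was under 0.05 for 4, 2 and 3 genes, beside 27.2% of all entries, and the model in the style of Ballgown gave 2, 0 and 1, beside 18.2%. Of the ABC proteins with other symbols, the antigen peptide transporters TAP1 and TAP2 had adjusted p-values of 0.477 and 0.914 and CFTR, an ABC protein that is a chloride channel, reached at most 0.0201 FPKM.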

How the data were processed

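RNA-seq of 3 HCC827/GR and 2 HCC827 libraries was analysed, grouped by the labels. The deposited values are FPKM per gene, which the authors made by trimming with Cutadapt, aligning with Bowtie2 and TopHat2, and assembling with StringTie. Versions are not given in the sources used here. The study's methods describe rRNA-depleted, paired-end libraries, whereas the labels describe a small RNA kit. The submitters' processing notes name hg18, but 135164 of 135299 Ensembl transcripts matched GENCODE release 29, from which GRCh38 positions were taken. FPKM is no read count, so the depth is unknown and no count test was run. Another FPKM column (1 in number) matched no sample and was left out. Columns with the authors' own comparisons were not used.

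Values were tested as log2(FPKM + 1) with limma 3.58.1 in R 4.3.3 (mean-variance trend, two-sided) over the 16189 entries that averaged 0.5 FPKM or more, with Benjamini-Hochberg adjustment, after the code was tested on simulated data. The alternatives were a pseudocount of 0.1, other filters, other scalings, no trend, a model in the style of Ballgown, summed entries, a replicate block and leaving out each library. Members and lists were chosen with earlier results of these data known. Named genes were the drug pumps ABCB1, ABCC1 to ABCC6, ABCC10 to ABCC12 and ABCG2, members with an adjusted p under 0.05, the 5 tested members with the highest mean FPKM, and up to 3 genes with an adjusted p under 0.05 per partner list. Every other gene given by name was chosen after its values were seen. Some members and a neighbouring gene are counted but not reported here by name.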

Additional observations from a re-analysis of the deposited data

How the results depend on the processing

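The counts of members with an adjusted p under 0.05, 3 higher and 2 lower, fell to 0 and 0 in the model in the style of Ballgown and to 0 and 0 with a replicate block, and ran from 1 to 3 and from 1 to 2 with each library left out. The block changed the calls of all 5 members, with ABCB1, ABCA3 and ABCA12 at an adjusted p of 0.130 and ABCC9 at 0.143. It used the only numbers both lines share, 2 and 3. The deviations of same-numbered libraries correlated at 0.0328 and 0.0147, and those of HCC827/GR replicate 1 and HCC827 replicate 3 at 0.0174. With only 2 HCC827 libraries their deviations mirror each other, so these values cannot decide whether the numbers pair the libraries. The main test did not pair them. Across all entries, 851 rose and 924 fell in limma's test, 4 and 9 in the model in the style of Ballgown, 0 and 0 with the block, and 504 and 757 with no filter. The cause was not tested. The higher count by fold change and p, 2, did not change in any alternative that kept both HCC827 libraries. The lower count by fold change and p, 1, was 4 with a pseudocount of 0.1 and 2 in the model in the style of Ballgown, and 1 to 2 with a library left out. The median log2 fold change, 0.17, was 0.21 with a pseudocount of 0.1, 0.060 with no filter and 0.25 in the model in the style of Ballgown, and 0.15 to 0.24 with a library left out. Of the single members, ABCC3 turned to -0.020 with the block and -0.025 with entries summed, and ran from -0.11 to 0.29 with a library left out. ABCC9 turned to -0.15 with entries summed. ABCF1 turned to -0.031 in the model in the style of Ballgown and ran from -0.019 to 0.19 with a library left out, and ABCF2 from -0.026 to 0.33. Median-ratio scaling and quantile normalization left both counts at 3 and 2. The lower count was 3 with equal totals over protein-coding genes, without the trend and with entries summed, in each case by the gain of ABCB9, and the higher count was 2 with entries summed, by the loss of ABCC9.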

Other observations

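ABCB6, a transporter of porphyrins, has no entry of its own here, since its transcripts were joined with those of ATG9A. That joined entry had 6.59, 6.84 and 5.37 FPKM in HCC827/GR and 5.89 and 4.46 FPKM in HCC827 libraries, with a log2 fold change of 0.24 and an adjusted p of 0.403 from limma. Of the 11 further ABCC9 entries, MSTRG.6565 had a log2 fold change of -0.93 (adjusted p = 0.0439), opposite in sign to the annotated entry, and MSTRG.6564 had -0.96 (adjusted p = 0.0597). The summed FPKM of the drug pumps was 91.2, 92.4 and 79.8 in HCC827/GR and 75.1 and 68.6 in HCC827 libraries. ETNK1, an ethanolamine kinase beside ABCC9, had a log2 fold change of -0.81 (adjusted p = 0.0412).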
